A study of Mus musculus with 6 samples.

Results

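The 38 genes described here encode the enzymes that remove reactive oxygen species and keep thiols reduced, together with the NRF2 regulators that control many of them. They were taken from a fixed list of gene symbols, which names superoxide dismutases, catalase, glutathione peroxidases, peroxiredoxins, thioredoxins, glutaredoxins, enzymes of glutathione synthesis, glutathione transferases and the NRF2 axis. All 38 were found among the 21761 genes of the count table. RNA was measured by sequencing of mouse long-term haematopoietic stem cells (LT-HSCs), sorted as CD45.2+ LSK CD150+ CD48- CD34- cells, with 200 cells per library. Both groups shared the Mx1-Cre transgene (tg/+), transplantation of whole marrow into lethally irradiated CD45.1/2 hosts, and poly(I:C) injection, and cells were collected 8 weeks after the last dose. The Control group (3 libraries) had the genotype Rosa26 +/+;Mx1-Cre tg/+. The IMP1 group (3 libraries), Rosa26 I/+;Mx1-Cre tg/+, carried in addition a conditional knock-in of IMP1 at Rosa26. IMP1 is an RNA-binding protein of fetal tissues, and Igf2bp1 is its gene. The Mx1 promoter answers to interferon in many cell types, so Cre was not restricted to stem cells, and the hosts' own CD45.1/2 cells also carry CD45.2. A gate against CD45.1, the age of the animals and any pooling are not described in the sources used here.

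Cells handle peroxide along parallel routes. Superoxide dismutases turn superoxide into hydrogen peroxide, which catalase, peroxiredoxins and glutathione peroxidases then reduce. Peroxiredoxins draw electrons from thioredoxin and thioredoxin reductase, glutathione peroxidases draw them from glutathione, and both chains end at NADPH. Blood stem cells are known to lose quiescence and self-renewal when reactive oxygen species accumulate, and the transcription factor NRF2, held down by KEAP1, raises many of these genes through the antioxidant response element.

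Of the listed genes, 6 encode selenoproteins, in which a UGA codon is read as selenocysteine rather than as a stop, and their codons are shown because these genes recur in the results. The sequences were read from the GENCODE M21 annotation on GRCm38, 5′ to 3′ on the plus strand, with the selenocysteine codon in capitals. In the glutathione peroxidases and in Msrb1 the codon lay inside the chain, and in both thioredoxin reductases it was the next to last codon before the stop.
Gpx1, residue 47 of 201, codon at chr9:108339451-108339453: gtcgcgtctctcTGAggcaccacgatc
Gpx3, residue 73 of 226, codon at chr11:54907256-54907258: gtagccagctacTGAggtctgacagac
Gpx4, residue 73 of 197, codon at chr10:80054737-80054739: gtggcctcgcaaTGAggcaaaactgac
Msrb1, residue 95 of 116, codon at chr17:24740158-24740160: caatcaagattcTGAatatttagcagc
Txnrd1, residue 498 of 499, codon at chr10:82896037-82896039: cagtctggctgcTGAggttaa
Txnrd2, residue 526 of 527, codon at chr16:18477772-18477774: gtgactggttgcTGAggctaa

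The promoters were searched for the core of the antioxidant response element, TGACNNNGC, on both strands (GCNNNGTCA on the other), from 250 bases before to 50 bases after each start in the RefSeq annotation of GRCm38.p6. Of the 33 listed genes with a promoter in that table, 8 held a match (24.2%), against 14.0% of all 27025 genes with a promoter and 16.96% of the tested genes with one. The matches are shown with 10 bases on each side, read along the strand of the motif, with the match in capitals.
Nfe2l2, chr2:75704885-75704913, minus strand: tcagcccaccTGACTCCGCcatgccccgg
Srxn1, chr2:152105542-152105570, minus strand: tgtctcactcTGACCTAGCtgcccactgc
Gstm5, chr3:107895802-107895830, plus strand: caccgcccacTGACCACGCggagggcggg
Gclm, chr3:122245413-122245441, minus strand: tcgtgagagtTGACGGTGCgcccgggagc
Prdx1, chr4:116685456-116685484, minus strand: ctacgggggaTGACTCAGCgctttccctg
Mgst1, chr6:138140461-138140489, minus strand: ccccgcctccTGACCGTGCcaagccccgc
Txnrd1, chr10:82859104-82859132, minus strand: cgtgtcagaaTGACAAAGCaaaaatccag
Sod1, chr16:90220696-90220724, minus strand: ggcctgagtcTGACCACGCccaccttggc

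Control libraries held 25749898 to 27338450 counts and IMP1 libraries 50220629 to 67083116, so depth and genotype cannot be told apart. Igf2bp1 had 0, 0 and 1 counts in Control and 1870, 2084 and 2016 counts in IMP1 libraries (log2 fold change 11.01, adjusted p = 0.00399), in accord with the labels. All 12 LT-HSC markers were detected, with a summed level of 3258 to 3437 CPM (counts per 1000000, scaled by trimmed mean of M values, TMM) in Control and 3440.4 to 4048 CPM in IMP1 libraries. Among 14 erythroid markers, 13 were detected in Control and 14 in IMP1 libraries, with sums of 3386 to 4218 and 3916 to 5273 CPM that were mostly Car2. Hbb-b1, a globin gene, was the only one that passed the test, at 17.9, 13.6 and 19.3 CPM in Control and 76.4, 59.9 and 51.5 CPM in IMP1 libraries (adjusted p = 0.0448). Car1 stood at 0, 0.0396 and 0 CPM in Control and 146.6, 0.0433 and 14.5 CPM in IMP1 libraries, while Epor had a log2 fold change of −0.48. The 14 neutrophil and monocyte markers summed to 721 to 840 CPM in Control, mostly Lyz2 and Prtn3, and 498 to 1217 CPM in IMP1 libraries. Of them 0 passed the test. Within that list the genes differed in direction. S100a8 stood at 9.47, 12.03 and 5.24 CPM in Control and 242.5, 170.6 and 11.4 CPM in IMP1 libraries, whereas Lyz2 stood at 436, 437 and 516 CPM in Control and 294, 308 and 263 CPM in IMP1 libraries (adjusted p = 0.0614). The 9 mast cell and basophil markers summed to 36.1 to 45.0 CPM in Control and 2.45 to 14.8 CPM in IMP1 libraries, with Gzmb and Cma1 at 0 throughout, and 0 passed the test. B cell markers summed to 71.6 to 85.5 CPM in Control and 80.0 to 147 CPM in IMP1 libraries. Among them Igll1 had 0, 0 and 0 counts in Control and 9, 2300 and 0 counts in IMP1 libraries, and Cd79b overlapped. In the same order, megakaryocyte markers summed to 351 to 733 and 319 to 530 CPM. T and NK cell markers summed to 11.7 to 28.7 and 30.8 to 48.1 CPM. Stromal and endothelial markers summed to 69.9 to 120 and 59.2 to 76.5 CPM. No gene of these lists passed the test. The part of all these cells in the results was not tested. The median log2 fold change of the 37 listed genes tested was −0.20 with all libraries and −0.20 without IMP1 1. Leaving out IMP1 1 does not remove such marker RNA, since S100a8 stood at 170.6 CPM in IMP1 2. The libraries were labelled as biological replicates, and nothing says how many animals stood behind each.

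No listed gene passed the test between IMP1 and Control. Of 12807 genes tested with edgeR's quasi-likelihood test, 27 had a Benjamini-Hochberg adjusted p under 0.05 (0.211%), 9 higher and 18 lower in IMP1. Without TMM scaling 16 genes were called (0.125%), 9 higher and 7 lower. Among the 37 listed genes tested the adjusted p ran from 0.0760 for Gpx1 to 0.998 for Glrx5, and 0 were called. Gpx3, a secreted glutathione peroxidase, was left out by the filter on low counts, with 24, 40 and 0 counts in Control and 12, 4 and 2 counts in IMP1 libraries.

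Below that threshold the listed genes leaned towards lower values. The log2 fold change was negative for 28 and positive for 9 of the 37, where 47.8% of all tested genes were negative. At an unadjusted p under 0.05, 8 listed genes were lower (7.63% of all tested genes) and 0 were higher (6.67%). Leaving out IMP1 2 or IMP1 3 left 5 lower in place of 8. These lay among the 18 listed genes above a mean of 100 CPM. Of all tested genes above that mean, 20.6% were lower without IMP1 2 and 19.2% without IMP1 3, against 22.9% with all libraries. Every IMP1 library lay below every Control library for 12 listed genes (11.1% of all tested genes), and above for 1, Hmox1 (10.7%). The median log2 fold change was −0.20, against 0.03 over all tested genes. Fewer cells of a type and less RNA per cell cannot be told apart in such bulk values. Without TMM scaling 25 were negative (40.9% of all tested genes). Of the listed genes, 4 were then lower at an unadjusted p under 0.05 (5.07%) and 7 were lower without overlap (7.89%). The 0 higher held only in some settings. Gsr was higher in edgeR without TMM scaling (unadjusted p = 0.0352) and with upper-quartile scaling (unadjusted p = 0.0480), and by DESeq2 (unadjusted p = 0.0366). Hmox1 was higher with edgeR's legacy = FALSE (unadjusted p = 0.0279). DESeq2 called 3 listed genes lower (3.05% of all tested genes), namely Gpx1 (adjusted p = 0.000186), Gpx4 (adjusted p = 0.0185) and Prdx6 (adjusted p = 0.0250), and 0 higher (2.37%). A stricter filter on low counts in edgeR gave 1 call among them, Gpx1 (adjusted p = 0.0467), where 1.12% of all tested genes were called.

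The intervals set how large a change these libraries leave room for. For 27 of the 37 genes the 95% interval of the fold change lay within 2-fold either way, and for 12 within 1.5-fold. It lay wholly below 0 on the log2 scale for 8 genes and wholly above 0 for 0. The other 10 genes, among them Hmox1, Gsr and Msrb1, had intervals that reached past 2-fold, so for them these libraries set no bound at that size.

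**Figure D1:**
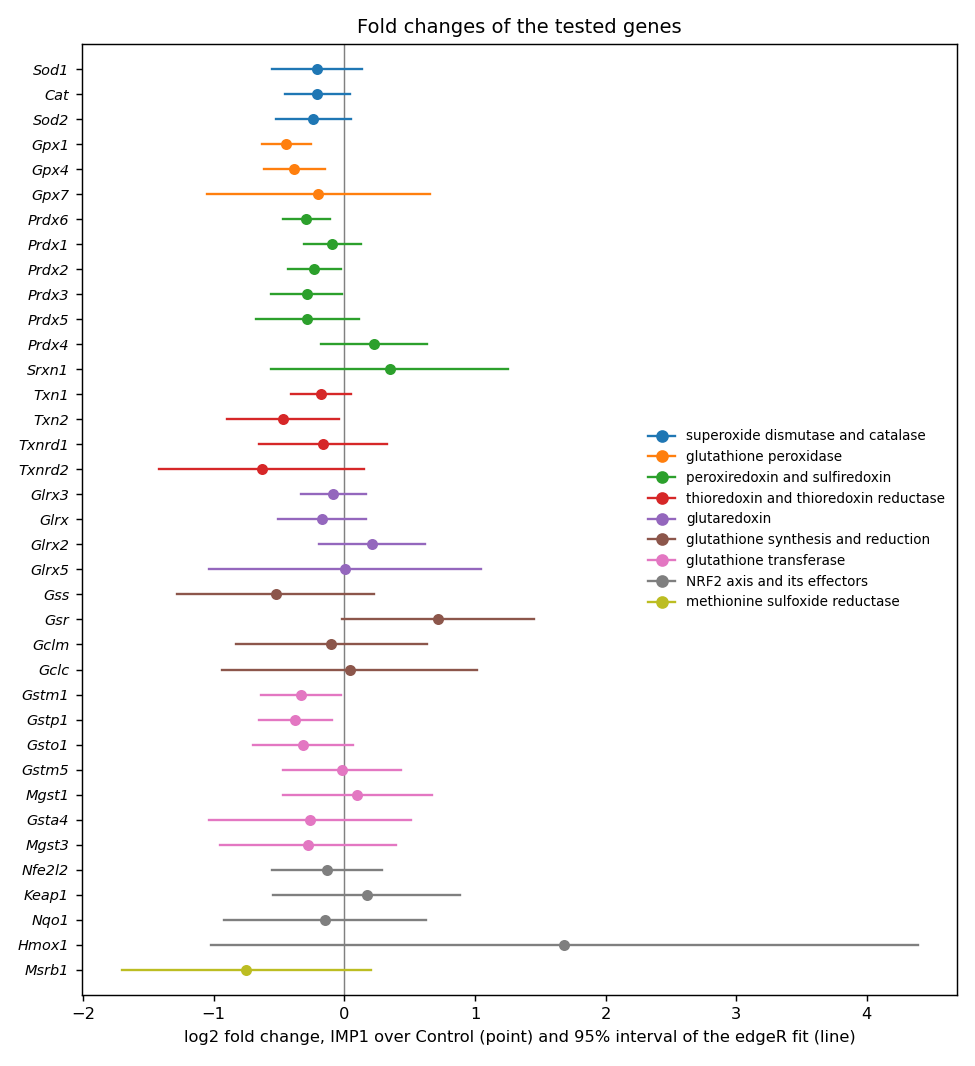
Log2 fold change of each of the 37 tested genes, IMP1 over Control (points), with the 95% interval of the edgeR fit (lines), coloured by role. Most points lie left of 0, 8 intervals lie wholly below 0, and the widest interval, from −1.02 to 4.39, belongs to Hmox1.

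Levels of different genes were compared as CPM per kilobase of the best-supported coding transcript. In Control libraries Gpx1 stood highest at 1655 ± 54.5 CPM per kilobase (SD over 3 libraries, as for every ± here), followed by Sod1 at 1453 ± 278, which did not differ from it beyond the spread. Gpx4 followed at 536 ± 33.2 CPM per kilobase. Prdx6 (419 ± 3.37), Prdx2 (418 ± 25.5), Prdx1 (414 ± 42.6) and Gstm1 (397 ± 43.9 CPM per kilobase) lay within each other's spread. Gstp1 (353 ± 44.6), Txn1 (287 ± 1.72) and Prdx3 (210.4 ± 20.8 CPM per kilobase) completed the upper 10. Glrx5 at 2.71 ± 0.732 and Gpx3 at 0.520 ± 0.498 CPM per kilobase were lowest. The place of Sod1 rests on its short supported transcript of 641 bases, and with the longest annotated transcript of 3970 bases it stood 9th.

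**Figure D2:**
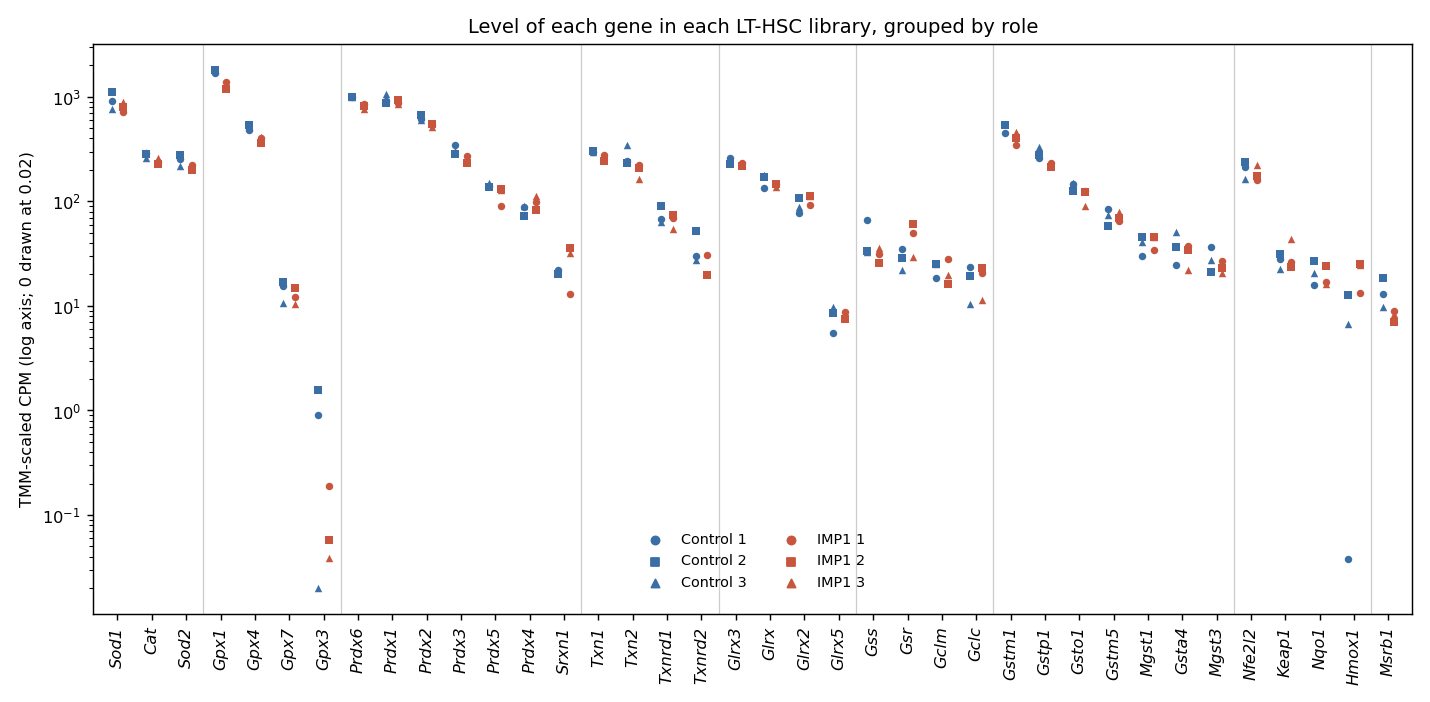
TMM-scaled CPM on a log axis for each of the 38 genes in each of the 6 libraries, grouped by role (blue Control, red IMP1, marker shape the replicate number). Gpx1 lies highest with all IMP1 points below all Control points, and Hmox1 shows the Control 1 library far below the others.

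Superoxide dismutases and catalase act at the head of the pathway, and 0 of these 3 genes passed the test. Cat, the peroxisomal enzyme that splits hydrogen peroxide, stood at 288, 287 and 261 CPM in Control and 238, 226 and 260.3 CPM in IMP1 libraries. The groups did not overlap, but Control 3 and IMP1 3 were nearly equal. For Cat the log2 fold change was −0.21 (SE 0.11, adjusted p = 0.444). Sod1, the cytosolic copper and zinc enzyme, stood at 921, 1114 and 758 CPM in Control and 713, 805 and 899 CPM in IMP1 libraries. The groups overlapped widely, with Control 2 highest and IMP1 1 lowest (log2 fold change −0.21, SE 0.15, adjusted p = 0.584, and −0.06 without Control 2). Sod2, the manganese enzyme of mitochondria, measured 252 ± 30.6 CPM in Control and 213 ± 10.8 CPM in IMP1 libraries and overlapped between groups (log2 fold change −0.24, adjusted p = 0.449). Of the 50-base stretches of Sod1, 23.1% also occur in transcripts of another gene, a pseudogene-like copy, so reads could be shared there.

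Glutathione peroxidases held the listed gene with the lowest p. Gpx1, which reduces hydrogen peroxide in the cytosol and mitochondria, stood at 1707, 1813 and 1803 CPM in Control and 1384, 1184 and 1346 CPM in IMP1 libraries. All 3 IMP1 libraries lay well below all 3 Control libraries, with IMP1 2 lowest. Mean levels of 1774 ± 58.4 CPM for Control and 1305 ± 106 CPM for IMP1 libraries gave a value 26.5% lower, with a log2 fold change of −0.44 (SE 0.08, 95% interval −0.63 to −0.26, adjusted p = 0.0760). No 50-base stretch of Gpx1 occurs in another gene's transcripts. Gpx4, which reduces lipid peroxides in membranes, stood at 480.4, 544 and 519 CPM in Control and 408, 359.8 and 415 CPM in IMP1 libraries. Here too the groups were apart, with a gap between Control 1 and IMP1 3 (log2 fold change −0.38, SE 0.10, adjusted p = 0.143). For Gpx4, 68.9% of its 50-base stretches also occur in other genes' transcripts, chiefly the pseudogene Gpx4-ps2, and how such reads were counted is not given in the sources used here. Gpx7, an enzyme of the endoplasmic reticulum, was low in both groups, with 14.3 ± 3.34 CPM for Control and 12.5 ± 2.25 CPM for IMP1 libraries, within its spread (adjusted p = 0.864).

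Peroxiredoxins and sulfiredoxin differed among themselves. Prdx6, which uses glutathione rather than thioredoxin, stood at 1003, 990.3 and 1005 CPM in Control and 859.8, 823 and 769 CPM in IMP1 libraries. Control values were almost identical and every IMP1 value was lower (log2 fold change −0.29, SE 0.08, adjusted p = 0.145). Prdx2, a cytosolic enzyme abundant in blood cells, stood at 611, 670.4 and 599 CPM in Control and 538, 555 and 511 CPM in IMP1 libraries. Its groups were apart, with a log2 fold change of −0.23 (SE 0.09, adjusted p = 0.296). Prdx3, the thioredoxin-dependent peroxidase of mitochondria, stood at 345, 286 and 302 CPM in Control and 275, 234 and 255 CPM in IMP1 libraries. Again no IMP1 library reached the lowest Control library, though IMP1 1 came close (log2 fold change −0.29, SE 0.12, adjusted p = 0.316).

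The remaining peroxiredoxins and sulfiredoxin each had an unadjusted p above 0.05. Prdx1, the cytosolic enzyme with the motif match shown above, stood at 917, 874 and 1061 CPM in Control and 873, 943 and 860.3 CPM in IMP1 libraries. The groups overlapped, and the log2 fold change of −0.09 (SE 0.10, adjusted p = 0.729) became 0.00 without TMM scaling. Prdx5, found in several compartments of the cell, stood at 139, 138 and 151 CPM in Control and 90.8, 132 and 129 CPM in IMP1 libraries. The groups were narrowly apart, with IMP1 1 far below the rest (log2 fold change −0.28, adjusted p = 0.515, and −0.13 without IMP1 1). Prdx4, the peroxiredoxin of the endoplasmic reticulum, measured 83.5 ± 9.60 CPM in Control and 97.7 ± 14.7 CPM in IMP1 and overlapped (adjusted p = 0.624). Srxn1, the sulfiredoxin that restores over-oxidised peroxiredoxins, stood at 22.02, 20.2 and 21.4 CPM in Control and 12.9, 35.7 and 32.3 CPM in IMP1 libraries, which lay on both sides of Control (adjusted p = 0.756). Reads may be shared with other genes for Prdx5 (29.7% of its 50-base stretches, where it overlaps Trmt112), Prdx2 (24.0%) and Prdx1 (10.9%).

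Thioredoxins and their reductases all had negative values, and 0 of 4 passed the test. Txn2, the mitochondrial thioredoxin, stood at 246, 236 and 347 CPM in Control and 225, 210.5 and 163 CPM in IMP1 libraries. The groups were apart by a narrow gap, and most of the difference lay in the high Control 3 and the low IMP1 3 (log2 fold change −0.47, SE 0.19, adjusted p = 0.308, and −0.27 without Control 3). Txn1, the cytosolic thioredoxin that feeds the peroxiredoxins, stood at 300.1, 303 and 300.2 CPM in Control and 280.3, 245 and 272 CPM in IMP1 libraries. Its Control libraries were level and its IMP1 libraries all lower, with a log2 fold change of −0.18 (adjusted p = 0.481). Txnrd1, the cytosolic reductase, measured 73.9 ± 14.7 CPM in Control and 66.0 ± 10.4 CPM in IMP1 libraries and overlapped (adjusted p = 0.794). Txnrd2, its mitochondrial counterpart, stood at 30.1, 52.6 and 27.4 CPM in Control and 31.0, 19.7 and 20.3 CPM in IMP1 libraries. It overlapped through IMP1 1, and its log2 fold change was −0.63 (SE 0.34, adjusted p = 0.459), or −0.28 without Control 2.

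Glutaredoxins, which reduce protein thiols bound to glutathione or carry iron and sulfur clusters, showed no difference beyond the spread. Glrx measured 162 ± 24.5 CPM in Control and 144 ± 6.01 CPM in IMP1 libraries. Glrx2, found in mitochondria and nucleus, measured 91.7 ± 15.6 and 106 ± 11.2 CPM. Glrx3 measured 241 ± 17.6 and 228 ± 7.26 CPM, and its log2 fold change of −0.08 became 0.01 without TMM scaling. Glrx5, needed for mitochondrial iron and sulfur cluster assembly, measured 7.93 ± 2.14 and 7.96 ± 0.644 CPM. All 4 overlapped between groups, and their median log2 fold change was −0.04. Transcripts of another gene contain 45.4% of the 50-base stretches of Glrx3.

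Glutathione synthesis and reduction held 4 genes, of which 2 had negative and 2 positive values. Gsr, the glutathione reductase that recycles oxidised glutathione with NADPH, stood at 34.7, 28.6 and 22.2 CPM in Control and 49.7, 61.1 and 29.6 CPM in IMP1 libraries. IMP1 1 and IMP1 2 lay above every Control library and IMP1 3 lay inside the Control range (mean 28.5 ± 6.25 against 46.8 ± 16.0 CPM). Its log2 fold change was 0.71 (SE 0.32, 95% interval −0.02 to 1.45, adjusted p = 0.366), and it was 0.47 without IMP1 2. Gclc, the catalytic subunit of the rate-limiting glutamate-cysteine ligase, measured 17.7 ± 6.60 CPM in Control and 18.2 ± 6.11 CPM in IMP1 libraries. Gclm, its modifier subunit, measured 22.8 ± 3.68 and 21.3 ± 6.02 CPM. Both differences were well inside the spread. Gss, glutathione synthetase, stood at 66.7, 33.8 and 32.5 CPM in Control and 31.1, 25.7 and 35.6 CPM in IMP1 libraries. Control 1 stood far above all others and the remaining 5 libraries overlapped (log2 fold change −0.53, adjusted p = 0.526, and −0.11 without Control 1).

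Glutathione transferases, which couple glutathione to reactive compounds, had 6 negative and 1 positive value, and 0 of 7 passed the test. Gstp1, of the pi class, stood at 261, 277 and 331 CPM in Control and 233, 214 and 223 CPM in IMP1 libraries. All IMP1 values lay below all Control values, with Control 3 highest (log2 fold change −0.38, SE 0.12, adjusted p = 0.229). Its neighbour in sequence Gstp2 contains most of the 62.3% of Gstp1 50-base stretches found elsewhere, and Gstp2 itself stood at 119, 121 and 146 CPM in Control and 107, 101 and 101 CPM in IMP1 libraries. Gstm1, of the mu class, stood at 447, 539 and 549 CPM in Control and 350.0, 404 and 465 CPM in IMP1 libraries. It was the only listed gene below an unadjusted p of 0.05 whose groups overlapped, since IMP1 3 exceeded Control 1 (log2 fold change −0.33, SE 0.13, adjusted p = 0.311). Of the 50-base stretches of Gstm1, 23.1% also occur in other genes' transcripts, with the largest share in Gstm2-ps1.

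Among the other transferases, Gsto1 of the omega class stood at 146, 126 and 152 CPM in Control and 125, 124 and 91.1 CPM in IMP1 libraries. Its groups were apart by less than the spread within either (log2 fold change −0.32, adjusted p = 0.447, and −0.18 without IMP1 3). Gsta4, which acts on the lipid peroxidation product hydroxynonenal, measured 37.3 ± 13.2 CPM in Control and 31.1 ± 7.95 CPM in IMP1 libraries. Gstm5 measured 72.1 ± 13.3 and 71.2 ± 7.34 CPM, with a sign that turned with the library scaling (0.075 without TMM). The microsomal Mgst1 measured 38.7 ± 8.03 and 41.5 ± 6.52 CPM, and Mgst3 measured 28.6 ± 7.87 and 23.6 ± 3.03 CPM. None of these last 4 was apart between groups. For Gstm5, 14.4% of the 50-base stretches also occur in transcripts of another gene, which overlaps it.

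The NRF2 axis held the largest log2 fold change of all the listed genes, and also the least certain. Hmox1, the haem oxygenase that NRF2 activates and BACH1 represses, stood at 0.0376, 12.8 and 6.69 CPM in Control (1, 324 and 167 counts) and 13.2, 24.96 and 24.6 CPM in IMP1 libraries (842, 1730 and 1278 counts). IMP1 1 was only just above Control 2, and Control 1 was almost empty of it. The log2 fold change was 1.68 (SE 1.18, adjusted p = 0.574), and it was 1.10 (adjusted p = 0.435) without Control 1 and 2.64 without Control 2. By limma-voom it was 3.64 (adjusted p = 0.360). Nfe2l2, which encodes NRF2, stood at 211, 240.3 and 163 CPM in Control and 161, 176 and 224 CPM in IMP1 libraries, with full overlap (log2 fold change −0.13, adjusted p = 0.806). Keap1, its inhibitor, measured 27.6 ± 4.49 CPM in Control and 31.1 ± 10.9 CPM in IMP1 libraries. Nqo1, the quinone reductase widely used as an NRF2 target, measured 21.1 ± 5.67 and 19.1 ± 4.44 CPM. Neither gene was apart between groups. For Keap1, 10.4% of the 50-base stretches also occur in transcripts of another gene.

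Msrb1, which reduces oxidised methionine in proteins, stood at 13.1, 18.4 and 9.69 CPM in Control and 9.01, 6.999 and 8.46 CPM in IMP1 libraries. The groups did not overlap, but IMP1 1 and Control 3 nearly met, and the log2 fold change of −0.75 had an SE of 0.41 (adjusted p = 0.472). Without Control 2 it was −0.48.

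The selenoproteins whose codons are shown above were set beside the other selenoprotein genes of the annotation, a grouping made after their values were seen and given without a test. Of the 6 listed, 5 were tested (Gpx1, Gpx4, Msrb1, Txnrd1 and Txnrd2), and all 5 values were negative, with −0.44 as the median log2 fold change. Among the other selenoprotein genes, 14 of 18 were tested, 7 negative and 7 positive, with a median of 0.03. Selenoi, an enzyme of phospholipid synthesis, had the value 1.01 (adjusted p = 0.110), and Selenop, the plasma selenium carrier, had −0.37 (adjusted p = 0.313). The unlisted genes with the highest levels were negative too, with Selenow at −0.07, Selenof at −0.30, Selenok at −0.17 and Selenos at −0.33 beside Selenop. The 7 positive values all lay in genes of lower level. These libraries show 5 negative values of 5 in the list and 7 of 14 outside it. Level differed among these genes, and nothing was tested on that difference.

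Genes with a motif match in the promoter were described beside those without, and the difference was not tested. Of the 8 with a match, 6 were negative with a median log2 fold change of −0.10, 0 were below an unadjusted p of 0.05, and 0 were apart between groups. The 24 tested genes with a promoter and no match held 20 negative values with a median of −0.26, 7 lower at an unadjusted p under 0.05 (7.63% of all tested genes) and 11 lower without overlap (11.1%). Both figures are descriptions, and the absence of the letters from this window says nothing of distant elements.

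Negative values gathered in the abundant genes. Above a mean of 100 CPM, a bound chosen after the values were seen, all 18 listed genes had a log2 fold change below 0 under TMM scaling, where 65.6% of the 2074 tested genes above that mean were negative. Without TMM scaling 16 of the 18 were negative (55.0% of those genes), since Prdx1 and Glrx3 moved to just above 0. Under TMM scaling, 8 of the 18 were below an unadjusted p of 0.05 (22.9% of the genes above that mean) and 11 were apart between groups (27.3%). The median was −0.26, against −0.13 over those genes. At or below 100 CPM, the 19 tested genes were split into 10 negative and 9 positive with a median of −0.02, and 0 were below an unadjusted p of 0.05. The summed level of the 38 genes was 9356, 9846 and 9591 CPM in Control and 8038, 7928 and 8175 CPM in IMP1 libraries. This sum did not overlap between groups. In each library 53.7% to 55.5% of it came from Gpx1, Prdx1, Prdx6, Sod1 and Prdx2. Without TMM scaling the sums were 9109, 9451 and 9305 CPM against 8269, 8190.1 and 8449 CPM, closer together but still apart.

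**Figure D3:**
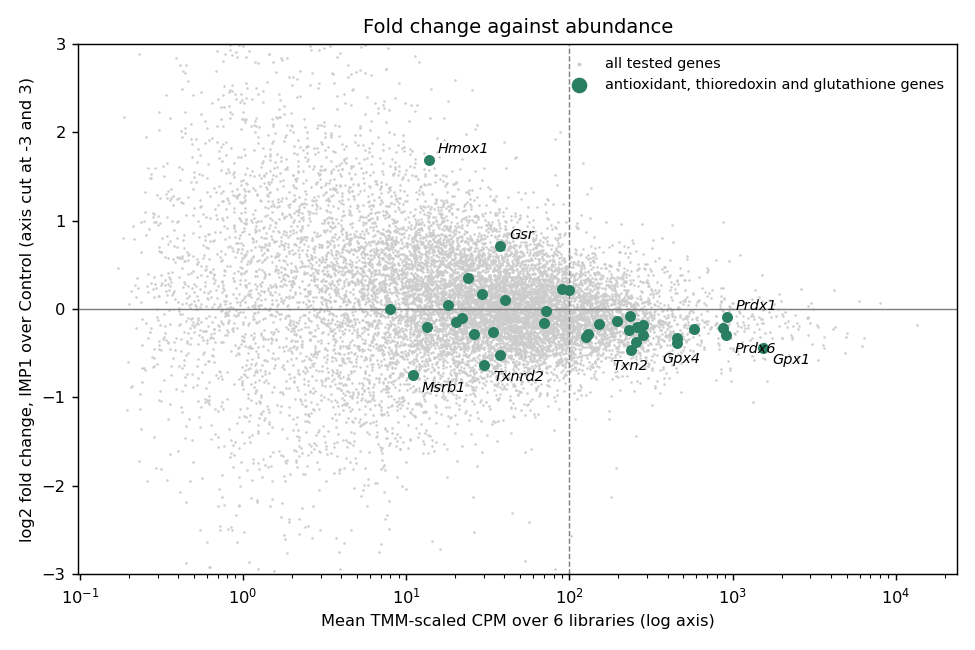
Log2 fold change, IMP1 over Control, against mean TMM-scaled CPM on a log axis for all 12807 tested genes (grey) and the 37 listed genes tested (green), with a dashed line at 100 CPM. All 18 green points right of the line lie below 0, inside the grey cloud, and the 19 left of it lie on both sides.

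Fold changes were also set against transcript length. The 36 listed genes above a mean of 8 CPM had a median length of 1937.5 bases (longest annotated transcript). The median was 3398 bases over the 9145 tested genes above that mean. In the shortest of 4 equal length classes, up to 2228 bases, the 19 listed genes had a median log2 fold change of −0.28, against −0.17 over all genes of that length, and 10 of the 19 were lower without overlap, against 25.5%. Between 2228 and 3398 bases the medians were −0.17 for 8 listed genes and −0.09 for all. Between 3398 and 4789 bases they were −0.08 for 7 listed genes and 0.06 for all. Above 4789 bases they were −0.17 for 2 listed genes and 0.17 for all. In each class the listed median lay below the median of all its genes, on a background that itself moved with length. Sod1, Glrx and Glrx3 were classed by longest transcripts of 3970, 4228 and 3440 bases. Their best-supported coding transcripts have 641, 1345 and 1685 bases, so their class depends on the transcript present. The same holds for Txnrd1 (3622 against 3325 bases), Glrx2 (3905 against 3337), Gss (3258 against 1963) and Txnrd2 (2874 against 1905).

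When a smooth trend on length and GC content was removed from each library, the listed genes moved nearer to 0 as a group. The median became −0.11, against 0.01 over all genes, 27 were negative (49.6% of all genes tested so), and 3 were lower at an unadjusted p under 0.05 (7.2%) in place of 8. These were Gpx1 at −0.28 (adjusted p = 0.216), Prdx6 at −0.19 (adjusted p = 0.337) and Sod2 at −0.46 (adjusted p = 0.164). Gsr came out higher at an unadjusted p under 0.05, with 0.82 (adjusted p = 0.344). Genes apart between groups numbered 6 lower in place of 12 (10.9%). The 3 lower genes and these 6 were all among the 18 listed above a mean of 100 CPM. Of the 2048 genes tested so above that mean, 20.2% were lower at that p and 24.8% were lower without overlap. All 18 stayed negative (66.3% of the 2048), with a median of −0.19 against −0.11. Sod2, whose longest annotated transcript has 5861 bases, moved away from 0, and the size of the correction depends on whether that transcript is the one present.

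**Figure D4:**
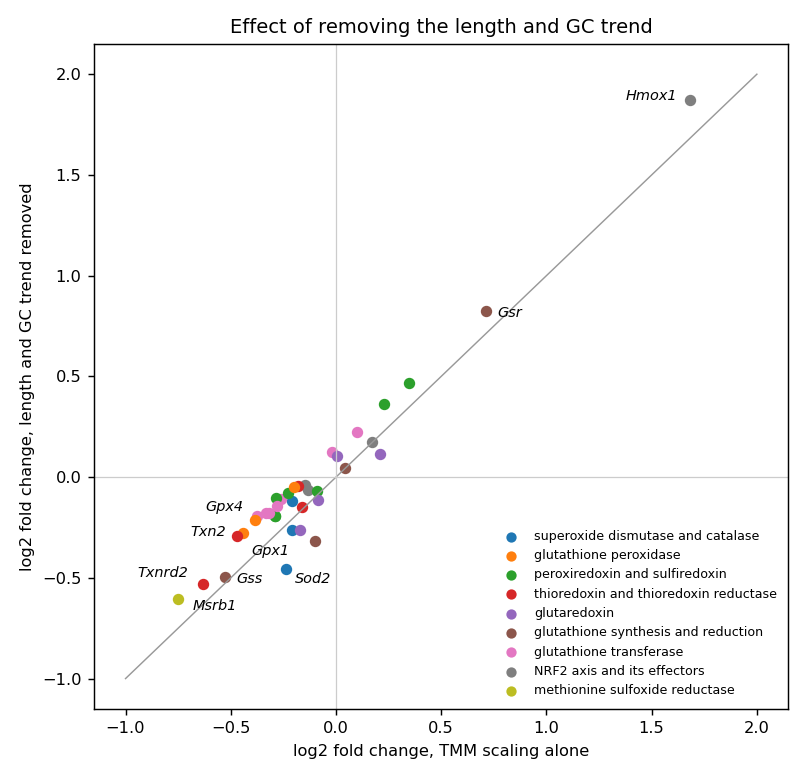
Log2 fold change, IMP1 over Control, of the 37 tested genes with TMM scaling alone (horizontal) and after removal of the length and GC trend (vertical), coloured by role, with the line of equality. Gpx1 lies above the line, nearer to 0, while Sod2 lies below it.

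The wider network was read from 6 lists of 125 other genes, of which 104 were tested and 0 passed the threshold. At an unadjusted p under 0.05, 8 of the 104 were higher and 14 lower, against 6.67% and 7.63% of all tested genes, and 64 were negative. DESeq2 called 12 of the 104, 4 higher (2.37% of all tested genes) and 8 lower (3.05%), and the stricter filter called 1, Gsta3 (1.12%).

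NADPH supply, which feeds both reductases, was the list with the lowest median, at −0.28 with 12 of 14 genes negative. Taldo1, transaldolase of the pentose phosphate pathway, measured 320.2 ± 13.4 CPM in Control and 218 ± 26.5 CPM in IMP1 libraries (log2 fold change −0.55, adjusted p = 0.0991). Tkt, transketolase of the same pathway, measured 172 ± 14.8 and 114 ± 18.4 CPM (adjusted p = 0.144). Pgd, which makes NADPH in that pathway, had a log2 fold change of −0.65 (adjusted p = 0.309). Nadk2, the mitochondrial kinase that makes NADP, went the other way at 112 ± 4.11 and 165 ± 25.6 CPM (adjusted p = 0.145).

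Among the other glutathione transferases, 17 of 20 were tested, with a median of −0.09. Gstt1 of the theta class stood at 83.0, 69.5 and 74.5 CPM in Control and 30.9, 35.2 and 41.5 CPM in IMP1 libraries. Every IMP1 library held far less of it than any Control library (log2 fold change −1.08, adjusted p = 0.0760). Gsta3 was nearly absent, with 0, 1 and 0 counts in Control and 95, 79 and 78 counts in IMP1 libraries (adjusted p = 0.0899). Gstcd had a log2 fold change of 1.89 (adjusted p = 0.200) and Gstm4 of −0.91 (adjusted p = 0.212).

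Other peroxidases and proteins of the thioredoxin fold numbered 30 tested of 35, with a median of −0.17. Park7, which encodes the oxidation sensor DJ-1, measured 581 ± 19.9 CPM in Control and 449.5 ± 6.41 CPM in IMP1 libraries (log2 fold change −0.37, adjusted p = 0.101). Ccs, the chaperone that loads copper into Sod1, measured 101 ± 14.9 and 66.2 ± 4.93 CPM (log2 fold change −0.61, adjusted p = 0.170). Txnip, the thioredoxin-binding inhibitor, measured 587 ± 44.3 and 809.9 ± 169 CPM (log2 fold change 0.46, adjusted p = 0.222). Of these 3 genes Txnip alone had its higher mean in IMP1 libraries, and none passed the threshold.

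NRF2 regulators and further NRF2 targets had a median of −0.03 over 24 tested of 26 genes. Akr1a1, an aldehyde reductase, measured 515 ± 20.3 CPM in Control and 405 ± 13.1 CPM in IMP1 libraries (log2 fold change −0.35, adjusted p = 0.128). Blvra, the biliverdin reductase that acts after haem oxygenase, had a log2 fold change of −0.51 (adjusted p = 0.297). Bach2, a repressor related to BACH1, had 0.88 (adjusted p = 0.338), and the small MAF gene Maff had 1.58 (adjusted p = 0.348). No shared direction was seen in this list, with 13 negative and 11 positive values.

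Genes of glutathione supply and breakdown, 9 tested of 13, had a median of −0.13. Ggt5, a gamma-glutamyl transferase that cleaves glutathione conjugates outside the cell, stood at 25.7, 25.3 and 42.9 CPM in Control and 11.1, 5.32 and 12.2 CPM in IMP1 libraries. All IMP1 values lay below all Control values (log2 fold change −1.72, adjusted p = 0.120). Slc3a2, a subunit of the cystine transporter, had 0.37 (adjusted p = 0.455), Abcc1, an exporter of glutathione conjugates, had 0.33 (adjusted p = 0.594), and Oplah, which recycles oxoproline, had −2.64 at very low counts (adjusted p = 0.556).

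Sources of oxidants, 10 tested of 17, had a median of 0.05. Mpo, the myeloperoxidase of neutrophil granules, had 673, 187 and 9 counts in Control and 2, 0 and 0 counts in IMP1 libraries (adjusted p = 0.0850). Cybb, the catalytic subunit of the phagocyte NADPH oxidase, had 0, 0 and 0 counts in Control and 463, 60 and 128 counts in IMP1 libraries (adjusted p = 0.0932). Ncf4, a cytosolic subunit of that oxidase, measured 19.1 ± 1.69 CPM in Control and 7.38 ± 3.58 CPM in IMP1 libraries (adjusted p = 0.254). Xdh, the xanthine dehydrogenase, had a log2 fold change of 0.96 (adjusted p = 0.539). Mpo and Cybb are also genes of myeloid cells, and Mpo is itself one of the myeloid markers summed above. Those sums lay at 721 to 840 CPM in Control and 498 to 1217 CPM in IMP1 libraries, highest in IMP1 1. In Control they were mostly Lyz2 and Prtn3, so they hide the single markers, which differed in direction. The part of myeloid cells in these values was not tested.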

How the data were processed

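Total RNA of 6 LT-HSC libraries was converted to cDNA with the SMARTer Ultra Low kit, which carries no molecular identifiers, so counting precision overstates molecular precision. The authors deposited values per Entrez gene, as the headers show, and these were taken as raw counts from the name given to them. The submitters' processing notes name TopHat2 2.0.10 and mm9, without their roles. The counting program, its annotation, the use of strand and the handling of shared reads are not given in the sources used here, so genes with near copies or overlaps are uncertain. RefSeq (GRCm38.p6) symbols matched 21615 of 21761 identifiers. Counts were tested in edgeR 4.0.16 (R 4.3.3) by the quasi-likelihood F test with TMM scaling and filterByExpr, all 6 libraries, genotype as the only term, two-sided, with p adjusted over 12807 genes. Standard errors are the absolute log2 fold change over the square root of F. Lengths and sequences come from GENCODE M21 and RefSeq on GRCm38. Gene lists and members were chosen with earlier results of these data known. Full statistics were given for the 10 listed genes of lowest p and the 5 with the highest mean CPM, and in each other list for genes past the threshold and the 4 of lowest p. Alternatives were DESeq2 1.42.0, limma-voom (limma 3.58.1), other edgeR settings, scalings and filters (at least 1 CPM in all libraries of a group as the strict one), thinning to the smallest total, loess removal of length and GC trends (span 0.4), a replicate block and leaving out each library. No libraries were duplicates (chi-square per degree of freedom at least 62.89). The fit was checked on simulated data.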

Additional observations from a re-analysis of the deposited data

How the results depend on the processing

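Over all genes, calls of 9 higher and 18 lower became 304 and 390 with DESeq2, 1 and 10 with limma-voom, 55 and 72 with the strict filter, and 1 and 3 with the replicate block. Lower calls were 36 with edgeR's legacy = FALSE, 7 without TMM and 7 after removal of the length and GC trend. Leaving out 1 library gave 0 to 2 higher and 0 to 1 lower calls. Listed genes called numbered 3 with DESeq2 and 1 with the strict filter, and genes of the other lists 12 and 1. Listed genes lower at an unadjusted p under 0.05 numbered 4 without TMM, 3 with the trend removed and 5 to 7 with a library left out. With a library left out, 17.8% to 20.9% of all tested genes above a mean of 100 CPM were lower so. This share was 14.4% without TMM and 20.2% once the trend was taken out. Listed genes lower without overlap numbered 7 without TMM and 6 with the trend removed. The median was −0.10 without TMM, −0.11 with the trend removed and −0.26 to −0.15 with a library left out. Same-numbered libraries did not deviate together (correlations 0.0149, 0.031 and −0.00831), so the replicate block, with 0 listed genes called, 7 lower at an unadjusted p under 0.05 and a median of −0.18, rests on numbers alone. Of 629 values (37 genes, 17 alternatives), 19 changed sign, and 26 genes kept theirs in all 17. Without TMM, Prdx1 came to 0.00127, Glrx3 to 0.00859 and Gstm5 to 0.075. Gstm5 came to 0.00999 with upper-quartile scaling and 0.13 with the trend removed, and Glrx5 to −0.056 on thinned counts. With a library left out, 9 genes spanned 0: Gsta4 (−0.49 to 0.026), Txnrd1 (−0.26 to 0.014), Keap1 (−0.15 to 0.33), Nqo1 (−0.36 to 0.073), Mgst1 (−0.059 to 0.23), Gclm (−0.34 to 0.058), Gclc (−0.23 to 0.29), Gstm5 (−0.15 to 0.11) and Glrx5 (−0.20 to 0.18). The causes were not tested. With 3 libraries a group, 10 of the 37 intervals reached past 2-fold.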
